A study of Mus musculus with 15 samples.

Results

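The comparison described here is knockdown of Vprbp in mouse embryonic stem cells differentiating in the presence of Activin A. It sets 3 libraries of cells with Vprbp siRNA against 3 libraries of cells with control siRNA, both with Activin A at 25 ng/ml, and uses 6 of the 15 libraries of the series. The cells were ES-R1, a line derived from the inner cell mass of the blastocyst, at passages below 20. The medium was free of serum and held the supplements N2 and B27, and cells were sampled in 4 days of differentiation. The same siRNAs without Activin, 3 libraries each, are set beside this comparison, and they share no library with it. The remaining 3 libraries, of control siRNA with the receptor inhibitor SB, enter only the fit of all 15 libraries. There they form part of the estimate of spread behind the p-values and standard errors. All groups carry an siRNA, the sequence of neither siRNA is given in the sources used here, and the labels name no other knockdown reagent. Loss of Vprbp and any other action of the siRNA therefore cannot be told apart. Whether replicates came from separate cultures is not stated, so p-values reflect only how far these libraries differ, which may be technical. Of 24451 genes in the table, 14600 had enough counts to be tested.

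Vprbp, also called Dcaf1, is the subunit that brings substrates to an E3 ubiquitin ligase built on the scaffold cullin 4 and the adaptor Ddb1 (CRL4). The ligase tags proteins for destruction by the proteasome or changes their activity, and Vprbp is known for roles in DNA replication, cell cycle progression and the regulation of growth pathways. Activin A is a ligand of the TGF-beta family. It binds type II and type I receptors, which phosphorylate Smad2 and Smad3, and these enter the nucleus with Smad4 and Foxh1. In mouse embryonic stem cells leaving the naive state, Activin and Nodal signals maintain the primed epiblast and, at stronger or longer exposure, lead to primitive streak and endoderm.

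Counts assigned to genes numbered 11.1 M to 15.3 M (M, mega) per library, 55.6% to 59.5% of all fragments. Expression is given as CPM, counts per mega (M) counts of the library, on library sizes scaled by TMM, a normalization to the bulk of genes, and the limit that a count of 0 allows was 0.196 to 0.269 CPM. Replicate 1 of the Vprbp siRNA group lay apart from the other 5 libraries on the first principal component, which held 36.7% of their variance, at 38.5 against -13.8 to 0.785. The second component, with 22.2%, separated the groups, at -16.5 to -8.67 for control siRNA and 1.33 to 24.4 for Vprbp siRNA. The share of fragments outside genes was 11.2% to 12.5% with control siRNA, and 10.3%, 12.2% and 16.02% in Vprbp siRNA replicates 1, 2 and 3. The median SD of log2 CPM was 0.100 among control siRNA libraries and 0.144 among Vprbp siRNA libraries. Every one of the 9 embryonic stem cell markers was abundant in both groups, with Pou5f1 at 750.3 to 825 CPM over the 6 libraries. Of 12 feeder fibroblast markers 9 had enough counts to be tested. Their summed level was 63.5 to 68.6 CPM with control and 59.4 to 68.6 CPM with Vprbp siRNA. Among the 9, only Dcn did not overlap between groups, at 3 to 6 counts with control and 16 to 23 counts with Vprbp siRNA. Of markers not tested, Postn had 0 to 7 and 4 to 17 counts, and Lum 0 or 1 count. Of 10 blood and endothelial markers 7 were tested, and these summed to 132.6 to 137.2 and 105.7 to 123.1 CPM. Nearly all of that signal came from Pecam1, which stem cells express as well. Pecam1 was lower in every knockdown library, at 124 to 128 CPM with control and 89.7 to 113 CPM with Vprbp siRNA. Tal1 was higher in every knockdown library, at 0.723 to 1.39 and 1.80 to 3.43 CPM, and the other tested markers overlapped. Hbb-bt and Hba-a1 had no count in any library. Of 9 muscle markers 8 were tested, all of which overlapped between groups, and these summed to 36.0 to 41.1 and 29.6 to 54.0 CPM. Tnnt2, not tested, had 1 or 2 counts. The part of these levels in the results was not tested.

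Vprbp RNA was lower in each knockdown library. It was at 178, 175 and 184 CPM in control siRNA replicates 1, 2 and 3 and at 149, 131 and 135 CPM in Vprbp siRNA replicates 1, 2 and 3, the order used for all values below. All 3 knockdown libraries lay below all 3 controls. The means were 179.1 ± 4.4 and 138.3 ± 9.2 CPM (SD, n = 3), so that Vprbp fell by 22.7%. The log2 fold change was -0.37 ± 0.06 (SE), with an adjusted p of 0.037 by the quasi-likelihood test of edgeR, adjusted over all genes after Benjamini and Hochberg. An exact two-sided permutation test over the 6 libraries gave p = 0.1, the smallest that 3 against 3 allows. The adjusted p was between 0.044 and 0.296 when 1 library was left out, and the call held in 1 of those 6 fits, the one without Vprbp siRNA replicate 1. Vprbp lies on chromosome 9 at 106814169 to 106880992 (GRCm38, the assembly also called mm10). Exons of Manf and Rbm15b on the opposite strand overlap it, and the strand setting of the counting is not given, so reads of these genes may be mixed.

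Few genes passed the test across all genes. With Vprbp siRNA 5 genes rose and Vprbp alone fell, which is 6 of 14600 genes, 0.0411%, with 0.0342% higher and 0.00685% lower. Among the genes that rose were those of an antiviral membrane protein (Ifitm3), a guidance ligand (Sema4c), a phosphatase (Ctdsp1) and an inhibitor of ERK signalling (Spred3). The changes were between 1.44-fold and 1.58-fold. At an unadjusted p under 0.05 there were 1532 genes, 10.5% of those tested, of which 858 (5.88%) were higher and 674 (4.62%) lower. In 2541 genes (17.4%) the 3 libraries of one group all lay on the same side of the 3 of the other, 1223 of them higher (8.38%) and 1318 lower (9.03%), and such genes are said below to lie apart. Every count of list members apart is to be read against these 2 shares of all genes.

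Ifitm3 (chromosome 7, 141009590 to 141010744) encodes an interferon-induced membrane protein that blocks the entry of viruses. It was at 102, 101 and 101 CPM with control siRNA and 151, 160.0 and 126 CPM with Vprbp siRNA, a log2 fold change of 0.53 ± 0.08 (adjusted p = 0.014). The control libraries lay within a few CPM of each other and below every knockdown library, of which replicate 3 was lowest. Sema4c (chromosome 1, 36548639 to 36560699), a transmembrane semaphorin that signals through plexin B receptors, had 21.4, 20.7 and 23.9 CPM and 37.9, 32.6 and 33.9 CPM (0.66 ± 0.10, adjusted p = 0.014). All 3 of its knockdown values were above its controls, with the highest in replicate 1. Exons of D430040D24Rik lie on its other strand.

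Ctdsp1 (chromosome 1, 74391609 to 74397285), a small C-terminal domain phosphatase that acts with the repressor REST at neuronal genes, had 42.3, 39.9 and 43.0 CPM with control siRNA and 69.7, 54.5 and 56.4 CPM with Vprbp siRNA (0.53 ± 0.09, adjusted p = 0.037). Replicate 1 of the knockdown stood above the other two, and both of those stood above the controls. Spred3 (chromosome 7, 29157783 to 29170070), a Sprouty-related inhibitor of the Ras to ERK cascade, had 21.6, 20.1 and 23.1 CPM and 33.5, 27.7 and 41.7 CPM (0.66 ± 0.12, adjusted p = 0.047). Its knockdown values were spread, although none reached down to a control value, and exons of Ggn overlap it on the other strand. The related gene Spred1 lay apart downward, at 144, 150 and 139 CPM and 117, 114 and 123 CPM (-0.29 ± 0.08, adjusted p = 0.19). Of 16 tested FGF and ERK targets, 1 lay apart upward (Spred3) and 1 downward (Spred1), with a median log2 fold change of 0.021. Over all genes tested 8.38% lay apart upward and 9.03% downward.

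**Figure D1:**
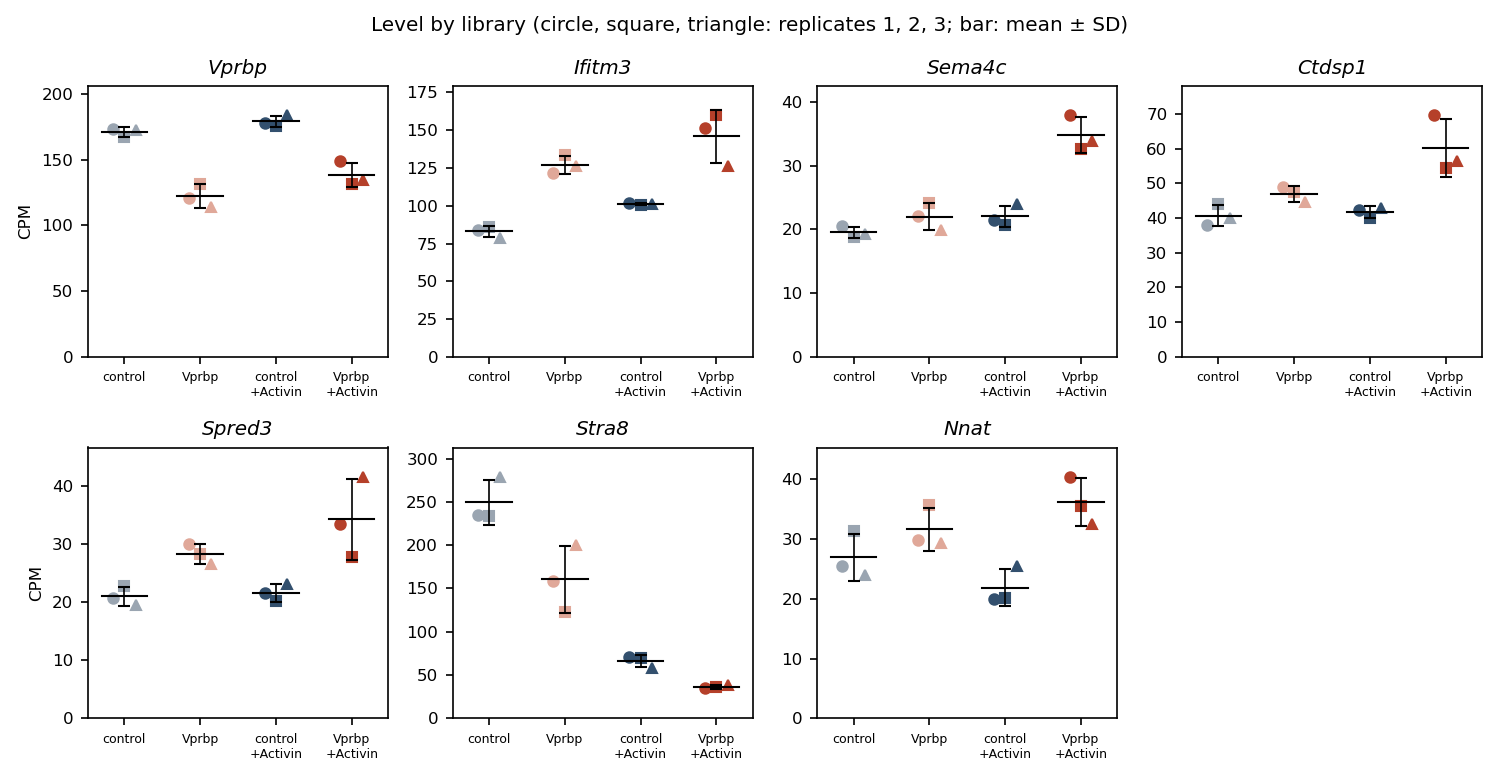
CPM (linear axis from 0) of Vprbp, of Ifitm3, Sema4c, Ctdsp1 and Spred3, which rose with Vprbp siRNA in Activin, and of Stra8 and Nnat, which did not pass the test. Symbols are single libraries of control and Vprbp siRNA without and with Activin, and lines and bars are mean ± SD (n = 3). With Activin the knockdown libraries of Ifitm3 lie at 126 to 160.0 CPM, above control libraries at 100.5 to 102 CPM.

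These calls rest on 3 libraries a side. Without control siRNA replicate 1, 2 or 3 edgeR called 0 genes (1131, 1122 and 1260 at an unadjusted p under 0.05), and without Vprbp siRNA replicate 1, 2 or 3 it called 5, 3 and 21. A fit of only the 6 libraries called 68 genes, 0.486% of 14002, with 53 higher (0.379%) and 15 lower (0.107%), 5 of the 6 genes above among them, and DESeq2 called 76.

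None of the partners of Vprbp in the ligase passed the test. The adaptor Ddb1 was at 1803, 1771 and 1770.4 CPM with control siRNA and 1709, 1734 and 1627 CPM with Vprbp siRNA, 3 libraries below 3, with a log2 fold change of -0.08 ± 0.06 (adjusted p = 0.68). The scaffolds Cul4a and Cul4b differed by 0.04 ± 0.07 and -0.03 ± 0.07, and the RING subunit Rbx1 by 0.19 ± 0.09. Of 29 genes of the ligase, its other substrate receptors and its known substrates, only Vprbp was called, and the median log2 fold change was -0.03. Of the others 1 lay apart upward and 3 lay apart downward (Ddb1, Dcaf12 and Cdt1). Over all genes tested 8.38% lay apart upward and 9.03% downward, so the downward count is near the share of all genes. Cdt1, the replication licensing factor degraded by this ligase family, was at 373, 369 and 364 CPM and then 342, 358 and 328 CPM. The median log2 fold change over all genes tested was 0.0017.

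The next genes in order of p did not pass, and their values are given as such. Naming these genes and the risen genes above required groups that did not overlap, so the separation of their libraries was set by the choice. First by p on the higher side was Nnat, which encodes neuronatin and is expressed from the paternal allele, at 20.0, 20.1 and 25.5 CPM and 40.5, 35.5 and 32.6 CPM (0.72 ± 0.13, adjusted p = 0.064). Rragd, a Rag GTPase of amino acid signalling to mTORC1, was at 42.6, 49.8 and 41.5 CPM and 83.9, 67.2 and 56.6 CPM (0.63 ± 0.12, adjusted p = 0.064). Both genes were highest in replicate 1 of the knockdown. Parp12, an interferon-inducible ADP-ribosyltransferase, was at 22.5, 24.0 and 23.7 CPM and 39.997, 42.4 and 31.0 CPM (0.69 ± 0.13, adjusted p = 0.081). The forkhead factor gene Foxp4 (0.37 ± 0.08), the focal adhesion gene Zyx (0.45 ± 0.09), the Wnt receptor gene Fzd2 (0.54 ± 0.11) and the synaptic vesicle gene Cplx2 (0.82 ± 0.17) had adjusted p-values from 0.096 to 0.099.

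On the lower side the gene with the lowest p after Vprbp was Stra8, which is induced by retinoic acid and needed for entry into meiosis. Stra8 was at 70.5, 69.2 and 58.6 CPM with control siRNA and 34.5, 35.6 and 38.6 CPM with Vprbp siRNA (-0.86 ± 0.15, adjusted p = 0.081). Its knockdown libraries were close to one another and far below the lowest control. In the fit of only the 6 libraries Stra8 had the smallest p of all genes (-0.86 ± 0.09, adjusted p = 0.0032). Nek2, a kinase that separates centrosomes before mitosis, was at 143, 127 and 127 CPM and 111, 103 and 104 CPM (-0.32 ± 0.06, adjusted p = 0.085). Ect2, an exchange factor that starts cytokinesis, was at 334, 339 and 318 CPM and 258, 277 and 279 CPM (-0.28 ± 0.06, adjusted p = 0.11). The differences of these 2 cell division genes were smaller than that of Stra8. The germ cell transcription factor gene Sohlh2 (-0.45 ± 0.10), the lipid phosphatase gene Inpp5d (-0.39 ± 0.09), the palmitoyltransferase gene Zdhhc18 (-0.31 ± 0.07), and Ypel2 (-0.47 ± 0.11), Slc35g1 (-0.44 ± 0.09), Ccdc117 (-0.30 ± 0.07) and Bend4 (-0.26 ± 0.06) were also among the genes of lowest p on this side, with adjusted p-values of 0.099 to 0.12.

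Interferon-stimulated genes were higher as a group in the knockdown libraries, although only Ifitm3 passed. Of 25 listed genes 23 were tested. Of these 11 lay apart upward and 0 downward, 9 had an unadjusted p under 0.05, all higher, and the median log2 fold change was 0.49, against 0.0017 over all genes. It was 0.51 without Vprbp siRNA replicate 1, and 0.45 in the comparison without Activin. There fewer of the 23 lay apart, 3 upward and 0 downward, where 6.64% and 5.65% of all genes tested did. In bulk RNA a higher level in every cell and a larger number of expressing cells cannot be told apart.

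The members divide by role. Among sensors of viral RNA and DNA, Ddx58, which encodes RIG-I, was at 23.3, 26.6 and 22.7 CPM with control siRNA and 35.4, 39.4 and 34.2 CPM with Vprbp siRNA (0.59 ± 0.16, unadjusted p = 0.0014, adjusted p = 0.2). Zbp1 was at 3.60, 3.25 and 4.03 CPM and 6.47, 8.09 and 4.93 CPM (0.83 ± 0.32). Neither gene overlapped between groups, and replicate 3 was the lowest knockdown library for both. Ifih1, another sensor of viral RNA, was named after its values were seen. It overlapped, at 1.68, 1.81 and 1.79 CPM and 4.15, 3.61 and 1.73 CPM. Stat2, a transcription factor of the type I interferon pathway, had -0.12 ± 0.10.

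Among effectors, the immunoproteasome subunit gene Psmb8 was at 5.66, 4.15 and 6.35 CPM and 11.5, 12.1 and 9.09 CPM (1.00 ± 0.31, adjusted p = 0.27). The immunity-related GTPase genes Igtp and Irgm2, which act against intracellular pathogens, and the following genes of this paragraph were picked after their values were seen. Igtp was at 10.3, 10.6 and 10.2 CPM and 22.0, 20.7 and 12.9 CPM (0.84 ± 0.34), and Irgm2 at 12.5, 12.3 and 11.6 CPM and 25.9, 23.5 and 17.4 CPM (0.87 ± 0.33). In both, knockdown replicates 1 and 2 were about 2 times the controls and replicate 3 was lower, still above every control. Ifitm1, the neighbour of Ifitm3, lay apart upward (0.33 ± 0.20), whereas Ifitm2 overlapped (0.03 ± 0.07), as did Isg15 (0.15 ± 0.61), Bst2 (0.14 ± 0.12) and B2m (0.19 ± 0.14). Psmb9, another immunoproteasome subunit gene, overlapped too, at 5.13, 3.43 and 4.17 CPM and 4.87, 3.83 and 4.30 CPM. Ifitm genes are close relatives of one another, as are Igtp and Irgm2, so reads may have been divided between them. In the fit of only the 6 libraries Ifitm3, Ddx58, Irgm2 and Psmb8 were called higher.

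The stretch of 250 bases before the start of transcription is shown for Ifitm3, the listed gene that rose, and for the neighbouring GTPase genes Igtp and Irgm2, which lay apart in the same direction. Sequences are from RefSeq on GRCm38.p6, 5′ to 3′ on the gene's strand, and capitals mark a motif of GAAA, any 2 letters and GAAA again, the core of the element bound by interferon-activated factors. They cover chr7:141010745-141010994 (minus strand), chr11:58199306-58199555 (plus strand) and chr11:58214727-58214976 (plus strand).
Ifitm3: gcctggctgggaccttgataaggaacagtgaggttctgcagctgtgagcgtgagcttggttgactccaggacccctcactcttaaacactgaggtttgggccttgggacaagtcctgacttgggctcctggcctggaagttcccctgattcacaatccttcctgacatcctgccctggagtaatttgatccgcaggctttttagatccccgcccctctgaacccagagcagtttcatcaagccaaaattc
Igtp: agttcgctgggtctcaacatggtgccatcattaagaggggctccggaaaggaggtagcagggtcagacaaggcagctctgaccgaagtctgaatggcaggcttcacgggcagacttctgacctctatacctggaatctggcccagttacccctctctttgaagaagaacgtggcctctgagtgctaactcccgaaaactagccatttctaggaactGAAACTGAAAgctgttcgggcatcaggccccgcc
Irgm2: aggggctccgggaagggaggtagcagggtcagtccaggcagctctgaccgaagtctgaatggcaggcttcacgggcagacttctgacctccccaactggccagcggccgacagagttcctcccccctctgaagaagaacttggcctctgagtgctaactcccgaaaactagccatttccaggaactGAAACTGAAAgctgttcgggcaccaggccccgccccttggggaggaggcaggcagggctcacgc
The same 10 letters stand in capitals in Igtp, 34 bases before its start, and in Irgm2, 64 bases before its start. No match lies in the Ifitm3 window. On either strand, 11 of the 20 interferon genes with a promoter sequence held a match (55%), against 328 of 11495 genes tested that had one (2.85%) and 978 of all 32851 RefSeq promoters (2.98%). Genes of this list with a match were Ifitm2, Bst2, Isg15, Stat2, Oas1a, Ifit1, Rsad2, Igtp, Irgm1, Irgm2 and B2m. Of these, Rsad2, Igtp, Irgm1 and Irgm2 lay apart upward and the others overlapped between groups. Of the genes without a match, Ifitm1, Ifitm3, Ddx58, Oasl2 and Psmb8 lay apart upward, and Ifih1, Ifit2, Irf9 and Psmb9 overlapped. The list was made of interferon genes, so its high share of matches follows from that choice and says nothing of the knockdown.

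Genes of the primed epiblast lay higher in the knockdown libraries and several genes of naive pluripotency lay lower, none of them past the test across all genes. Of 16 primed genes 10 lay apart upward and 0 downward, 6 had an unadjusted p under 0.05, and the median log2 fold change was 0.38, or 0.30 without Vprbp siRNA replicate 1. Of 19 naive genes 7 lay apart downward and 0 upward, 6 had an unadjusted p under 0.05, and the median was -0.16, or -0.16 without that library. Without Activin the medians were 0.41 and 0.016. There 5 primed genes lay apart upward and 0 downward, and 1 naive gene upward and 0 downward. The shares of all genes tested were 6.64% and 5.65%.

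Dnmt3b, the de novo DNA methyltransferase that appears when cells leave the naive state, was at 445, 447 and 461 CPM with control siRNA and 775, 631 and 594 CPM with Vprbp siRNA (0.56 ± 0.12, unadjusted p = 0.00022, adjusted p = 0.12). Sox3, a SoxB1 factor of epiblast and neural progenitors, was at 19.9, 16.1 and 15.7 CPM and 28.0, 27.9 and 28.9 CPM (0.72 ± 0.19, adjusted p = 0.19). Its knockdown libraries were nearly level with each other and all above the highest control. The neural SoxC factor gene Sox11 was at 46.7, 51.4 and 46.3 CPM and 75.4, 55.9 and 65.3 CPM (0.44 ± 0.12), and N-cadherin, encoded by Cdh2, at 11.0, 11.8 and 13.2 CPM and 33.1, 15.5 and 17.9 CPM (0.87 ± 0.25). In Dnmt3b, Sox11 and Cdh2 replicate 1 was the highest of the knockdown libraries. Fgf5, the ligand most used to mark the primed state and named here after its values were seen, was at 35.5, 33.2 and 36.5 CPM and 90.1, 56.0 and 50.5 CPM (0.90 ± 0.41, adjusted p = 0.48). Otx2, which drives exit from the naive state, was at 253, 243 and 249.9 CPM and 293, 285 and 270.2 CPM (0.18 ± 0.32). Both lay apart, Otx2 by little. In the fit of only the 6 libraries 6 of the 16 were called higher (Dnmt3b, Pou3f1, Foxd3, Sall2, Zic2 and Sox3).

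On the naive side the nuclear receptor gene Nr5a2 was at 80.7, 76.2 and 73.6 CPM with control siRNA and 61.5, 58.4 and 59.9 CPM with Vprbp siRNA (-0.36 ± 0.10, unadjusted p = 0.0019, adjusted p = 0.21). Tfcp2l1, a factor downstream of LIF and Wnt signals, was at 309, 310.4 and 300.4 CPM and 234, 211 and 262 CPM (-0.38 ± 0.14). Prdm14, which represses methyltransferase genes and is needed for germ cells, was at 28.8, 27.2 and 25.3 CPM and 24.2, 19.1 and 21.6 CPM (-0.32 ± 0.14). In all 3 genes the groups lay apart, with the knockdown below. Zfp42, also called Rex1, was at 151, 144 and 129 CPM and 132, 117 and 119 CPM (-0.20 ± 0.08) and overlapped. Esrrb (-0.16 ± 0.15), Klf4 (-0.21 ± 0.12) and Nanog (-0.07 ± 0.09) were named after their values were seen. In the fit of only the 6 libraries Tfcp2l1, Spp1 and Nr5a2 were called lower.

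Core pluripotency genes showed no common direction. Of 14, 1 lay apart upward and 3 downward, where 8.38% and 9.03% of all genes tested did, with a median of -0.0045. Dppa5a, an RNA-binding protein of pluripotent cells, was at 267, 251 and 239.8 CPM and 198, 206 and 191 CPM (-0.35 ± 0.08, adjusted p = 0.13), and Sox2 was at 933, 796 and 833 CPM and 767, 748 and 759 CPM (-0.17 ± 0.09). Both lay apart downward. Pou5f1, which encodes Oct4, differed by 0.03 ± 0.06.

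**Figure D2:**
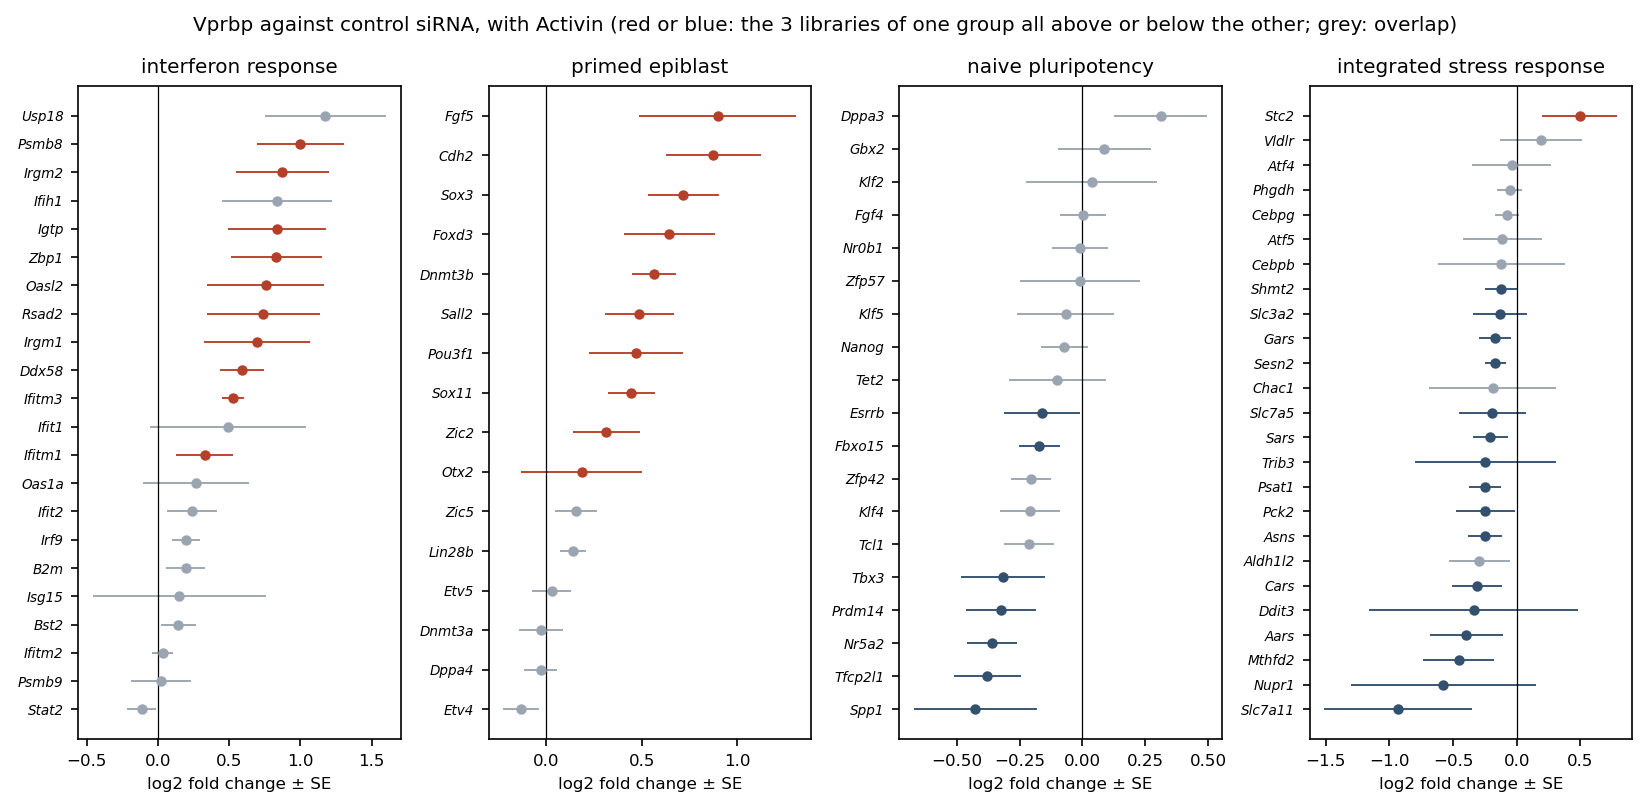
Log2 fold change ± SE (Vprbp against control siRNA, with Activin) of tested interferon response, primed epiblast, naive pluripotency and integrated stress response genes. The plot leaves out 1 of the interferon genes counted. Red and blue mark genes whose 3 knockdown libraries all lay above or below the 3 controls, which held upward for 11 of 23, 10 of 16, 0 of 19 and 1 of 25 genes and downward for 0, 0, 7 and 16.

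The integrated stress response, which under amino acid shortage or unfolded protein acts through Atf4, showed the largest share of genes apart on the lower side, though with small differences. Of 25 genes 16 lay apart downward and 1 upward, the median was -0.19, and it was -0.16 without Vprbp siRNA replicate 1. By edgeR's test 0 of the 25 had an adjusted or unadjusted p under 0.05, and 2 (Mthfd2 and Aars) were called lower in the fit of only the 6 libraries. Asparagine synthetase, encoded by Asns, was at 427, 438 and 429 CPM with control siRNA and 359, 360.2 and 368 CPM with Vprbp siRNA (-0.25 ± 0.14, unadjusted p = 0.089). Psat1, of serine synthesis, was at 484, 483 and 485 CPM and 418, 392 and 415 CPM (-0.25 ± 0.13, unadjusted p = 0.07). In each gene the libraries of a group were close together and the groups were clearly separated. The leucine sensor gene Sesn2 was at 113, 106 and 117 CPM and 93.2, 103 and 103 CPM (-0.17 ± 0.08), and the secreted glycoprotein gene Stc2, the 1 gene apart upward, at 7.27, 9.66 and 7.21 CPM and 13.4, 10.7 and 9.78 CPM (0.49 ± 0.30). Mthfd2, of mitochondrial folate metabolism and chosen with its values known, was at 85.5, 83.5 and 79.3 CPM and 58.1, 56.5 and 66.2 CPM (-0.46 ± 0.28, unadjusted p = 0.13). RNA of Atf4 itself differed by -0.04 ± 0.31. The standard errors come from the fit of all 15 libraries, so they include the spread of these genes in the other groups.

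Cholesterol synthesis genes, which the factor Srebf2 activates when sterols are low, had no member past the test. Of 24, 10 lay apart downward and 0 upward, 2 had an unadjusted p under 0.05, and the median was -0.12 (-0.093 without Vprbp siRNA replicate 1). The sterol sensor partner Insig1 was at 108, 109 and 110.4 CPM and 96.4, 95.0 and 95.5 CPM (-0.19 ± 0.08), and squalene synthase, encoded by Fdft1, at 223, 224 and 224 CPM and 190.0, 195 and 206 CPM (-0.18 ± 0.08). The 3 controls of each of these 2 genes were almost equal and above all knockdown libraries, and adjusted p-values were 0.41 and 0.45. Of fatty acid oxidation, Cpt1a, the enzyme that admits long-chain fatty acids to mitochondria, was at 105, 101 and 107 CPM and 83.7, 80.7 and 84.0 CPM (-0.33 ± 0.08, adjusted p = 0.13). Of the 18 genes of that list 2 lay apart downward, near the 9.03% of all genes tested that did.

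Germ cell genes held several of the lower values. Of 21, 7 lay apart downward and 1 upward, 6 had an unadjusted p under 0.05 in the lower direction and 1 in the higher, and the median was -0.083. None passed the test. After Stra8 came Dazl, a translational regulator of the germ line, at 23.8, 21.9 and 19.5 CPM and 15.97, 14.7 and 15.2 CPM (-0.50 ± 0.14, adjusted p = 0.21). Tfap2c, a factor of germ cell and trophoblast specification, was at 109.8, 99.7 and 100.04 CPM and 81.2, 80.5 and 87.2 CPM (-0.31 ± 0.09). Every control of both genes was above every knockdown library. Tex11, of meiotic recombination, had -0.27 ± 0.11. Between cells with and without Activin, Stra8 differed by -1.92 ± 0.14 under control siRNA and by -2.15 ± 0.15 under Vprbp siRNA, values that share libraries with the knockdown comparison.

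No gene of the 2 cell cycle lists passed the test. Of 28 mitosis genes 8 lay apart downward and 0 upward (median -0.070), and of 34 replication and S phase genes 9 and 0 (median -0.053), with 3 and 2 at an unadjusted p under 0.05, all lower, where 4.62% of all genes tested were. Bub1b, a spindle checkpoint kinase, was at 359, 345 and 345 CPM and 316, 299 and 293 CPM (-0.21 ± 0.06, adjusted p = 0.21). The spindle assembly gene Hmmr was at 320.1, 345 and 311 CPM and 263, 283 and 283 CPM (-0.23 ± 0.07), and Rrm2, a subunit of ribonucleotide reductase, at 219.5, 211 and 222 CPM and 191, 199.5 and 192 CPM (-0.16 ± 0.05). Groups lay apart in the 3 genes by small margins. Among 26 targets of p53, which this ligase has been linked to, 5 lay apart downward and 0 upward, with a median of -0.096 (-0.054 without Vprbp siRNA replicate 1). Of all genes tested 9.03% lay apart downward and 8.38% upward.

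No ligand, receptor, Smad or feedback gene of the Activin pathway passed the test. Of its ligands, Nodal was at 114, 112 and 122 CPM with control siRNA and 104, 119 and 115 CPM with Vprbp siRNA (-0.04 ± 0.10), and Inhbb, the beta B subunit shared by activins and inhibins, at 78.5, 71.6 and 74.5 CPM and 52.9, 48.3 and 63.7 CPM (-0.44 ± 0.12, unadjusted p = 0.0016, adjusted p = 0.21). Nodal overlapped and Inhbb lay apart downward. Of 20 tested ligand, receptor and Smad genes 2 lay apart upward (Smad3, 0.21 ± 0.10, and the Smad corepressor Tgif2, 0.19 ± 0.07) and 1 downward, with a median of -0.00056. Of all genes tested 8.38% lay apart upward and 9.03% downward.

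Targets that feed back on the pathway had 3 of 12 genes apart upward and 0 downward and a median of 0.18, which was 0.057 without Vprbp siRNA replicate 1. Lefty1, a secreted Nodal antagonist, was at 253, 239 and 272 CPM and 327, 262 and 263 CPM (0.16 ± 0.37), and Lefty2 at 199, 179.8 and 214 CPM and 284, 189 and 197 CPM (0.18 ± 0.39). For both Lefty genes replicate 1 was the highest knockdown library and the groups overlapped. Pmepa1, a membrane protein that sequesters Smads, was at 66.1, 68.1 and 71.9 CPM and 74.5, 83.0 and 87.1 CPM (0.25 ± 0.08, adjusted p = 0.31) and lay apart, as did the Smad partner Foxh1 (0.18 ± 0.07) and the Nodal co-receptor Tdgf1 (0.27 ± 0.27).

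Genes of primitive streak and endoderm had the highest medians of all lists, and these medians rested on 1 library. Over 13 streak genes the median was 0.83 and without Vprbp siRNA replicate 1 it was 0.014. Over 9 endoderm genes it was 1.26 and 0.15. Cer1, a secreted antagonist made by anterior endoderm, was at 4.51, 1.35 and 1.79 CPM with control siRNA and 51.3, 6.14 and 2.77 CPM with Vprbp siRNA (2.95 ± 1.14, adjusted p = 0.42). Brachyury, encoded by T, was at 16.3, 12.7 and 10.1 CPM and 71.9, 19.1 and 15.7 CPM (1.44 ± 0.53), and the endoderm factor gene Foxa2 at 3.75, 2.08 and 1.79 CPM and 23.2, 4.04 and 2.91 CPM (1.96 ± 0.82). In the 3 genes replicate 1 was several times above its fellow replicates, which lay nearer to the controls. Sox17, which specifies definitive endoderm, was at 3.60, 2.35 and 2.78 CPM and 21.6, 3.03 and 2.57 CPM (1.61 ± 0.70), and Gsc, a marker of the organizer, at 1.15, 0.452 and 0.793 CPM and 7.50, 0.722 and 1.11 CPM (1.90 ± 0.76). Fgf8 was the 1 streak gene whose groups lay apart, at 8.11, 3.61 and 6.55 CPM and 24.1, 8.52 and 8.81 CPM (1.16 ± 0.38, adjusted p = 0.31). Keratin genes of simple epithelium were highest in the same library, with Krt18 at 79.3, 69.5 and 73.6 CPM and 200.5, 110.1 and 75.1 CPM (0.79 ± 0.29) and Krt8 at 22.5, 19.6 and 18.6 CPM and 83.4, 30.6 and 17.3 CPM (1.10 ± 0.47).

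**Figure D3:**
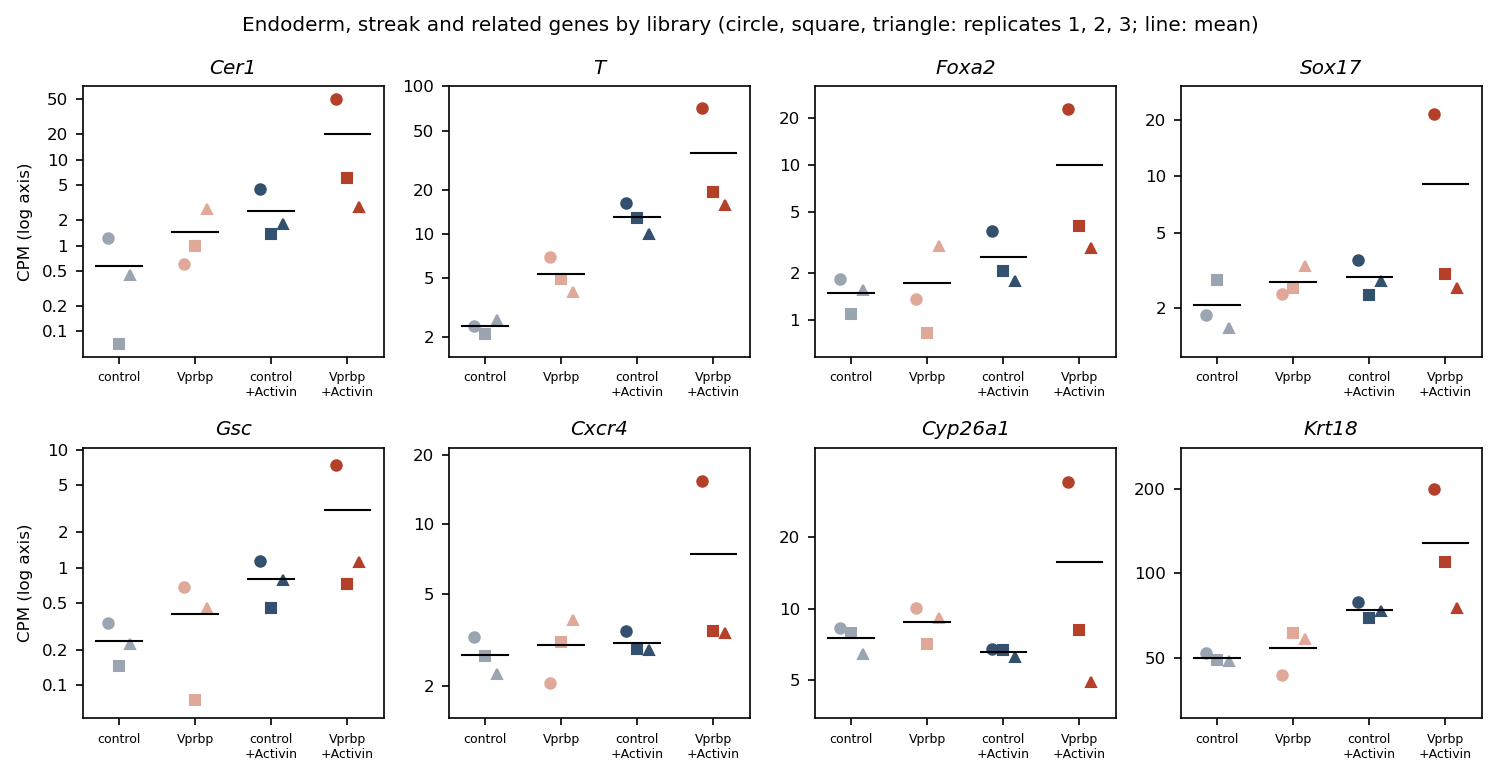
CPM on log axes of Cer1, T, Foxa2, Sox17, Gsc, Cxcr4, Cyp26a1 and Krt18 in single libraries of control and Vprbp siRNA without and with Activin, with lines at the group means. Replicate 1 of Vprbp siRNA with Activin (circle) is the highest library in every panel, for Cer1 at 51.3 CPM against 6.14 and 2.77 CPM in replicates 2 and 3.

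Other developmental lists had members that lay apart upward, none of them past the test. Over all genes tested 8.38% lay apart upward and 9.03% downward, and 5.88% were higher at an unadjusted p under 0.05. Of 32 tested axon guidance genes 9 lay apart upward and 0 downward, 11 had an unadjusted p under 0.05, all higher, and the median was 0.11 (0.063 without Vprbp siRNA replicate 1). The netrin receptor gene Unc5b was at 134, 134 and 137 CPM and 186, 171 and 156 CPM (0.34 ± 0.08, adjusted p = 0.12), and the ephrin ligand gene Efnb2 at 40.01, 40.8 and 39.0 CPM and 58.9, 52.1 and 50.4 CPM (0.43 ± 0.11). The secreted semaphorin gene Sema3f was at 13.7, 15.6 and 16.7 CPM and 20.9, 22.8 and 20.0 CPM (0.47 ± 0.12). Each of the 3 had its knockdown libraries above its controls. They were named for their low p in this list, so that separation follows in part from the choice. Sema4c was not in this list.

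Of 11 TALE homeobox genes, cofactors of Hox proteins, 4 lay apart upward and 0 downward (Meis1, Meis3, Pknox2 and Tgif2), with a median of 0.11 that was 0.19 without Vprbp siRNA replicate 1. Pknox2 was at 6.43, 7.77 and 6.88 CPM and 12.5, 9.32 and 9.78 CPM (0.59 ± 0.15, adjusted p = 0.17), and Meis1 at 1.91, 1.99 and 2.05 CPM and 2.87, 2.82 and 3.12 CPM (0.56 ± 0.20). In neither gene did the groups overlap. Of 17 Hox genes 3 lay apart upward and 0 downward (median 0.22), Hoxb4 among them (0.70 ± 0.28), where 8.38% of all genes tested lay apart upward.

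Of 26 imprinted genes 5 lay apart upward and 1 downward, with a median of 0.16 that was -0.0028 without Vprbp siRNA replicate 1. Beside Nnat, the maternally expressed noncoding RNA gene Rian was at 146, 158 and 146 CPM and 170.3, 188 and 216 CPM (0.35 ± 0.08, adjusted p = 0.11), and Gnas, which encodes the stimulatory G protein alpha subunit, at 533, 513 and 522 CPM and 724, 654 and 564 CPM (0.31 ± 0.07, adjusted p = 0.12). Both lay apart upward. Mirg, of the same cluster as Rian, had 0.58 ± 0.15. Rian was highest in knockdown replicate 3, which had the largest share of fragments outside genes, and Gnas in replicate 1.

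Of 21 epithelial and mesenchymal genes 5 lay apart upward and 0 downward, with a median of 0.32 that was 0.15 without Vprbp siRNA replicate 1. The epithelial splicing factor gene Esrp1 was at 69.5, 70.1 and 69.2 CPM and 108, 89.3 and 79.9 CPM (0.41 ± 0.11, adjusted p = 0.21), and the epithelial factor gene Grhl2 at 30.7, 31.3 and 35.8 CPM and 42.8, 37.0 and 42.1 CPM (0.32 ± 0.11). Among 22 neuroectoderm genes, which share Sox3, Zic2 and Otx2 with the primed list, 4 lay apart upward and 1 downward, the latter the receptor gene Notch1 at 119, 125 and 125 CPM and 84.2, 105 and 108 CPM (-0.31 ± 0.08, adjusted p = 0.21). Of 31 Polycomb genes 2 lay apart upward and 5 downward, and of 30 ribosomal protein genes 0 lay apart in either direction. The shares over all genes tested were 8.38% upward and 9.03% downward.

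**Figure D4:**
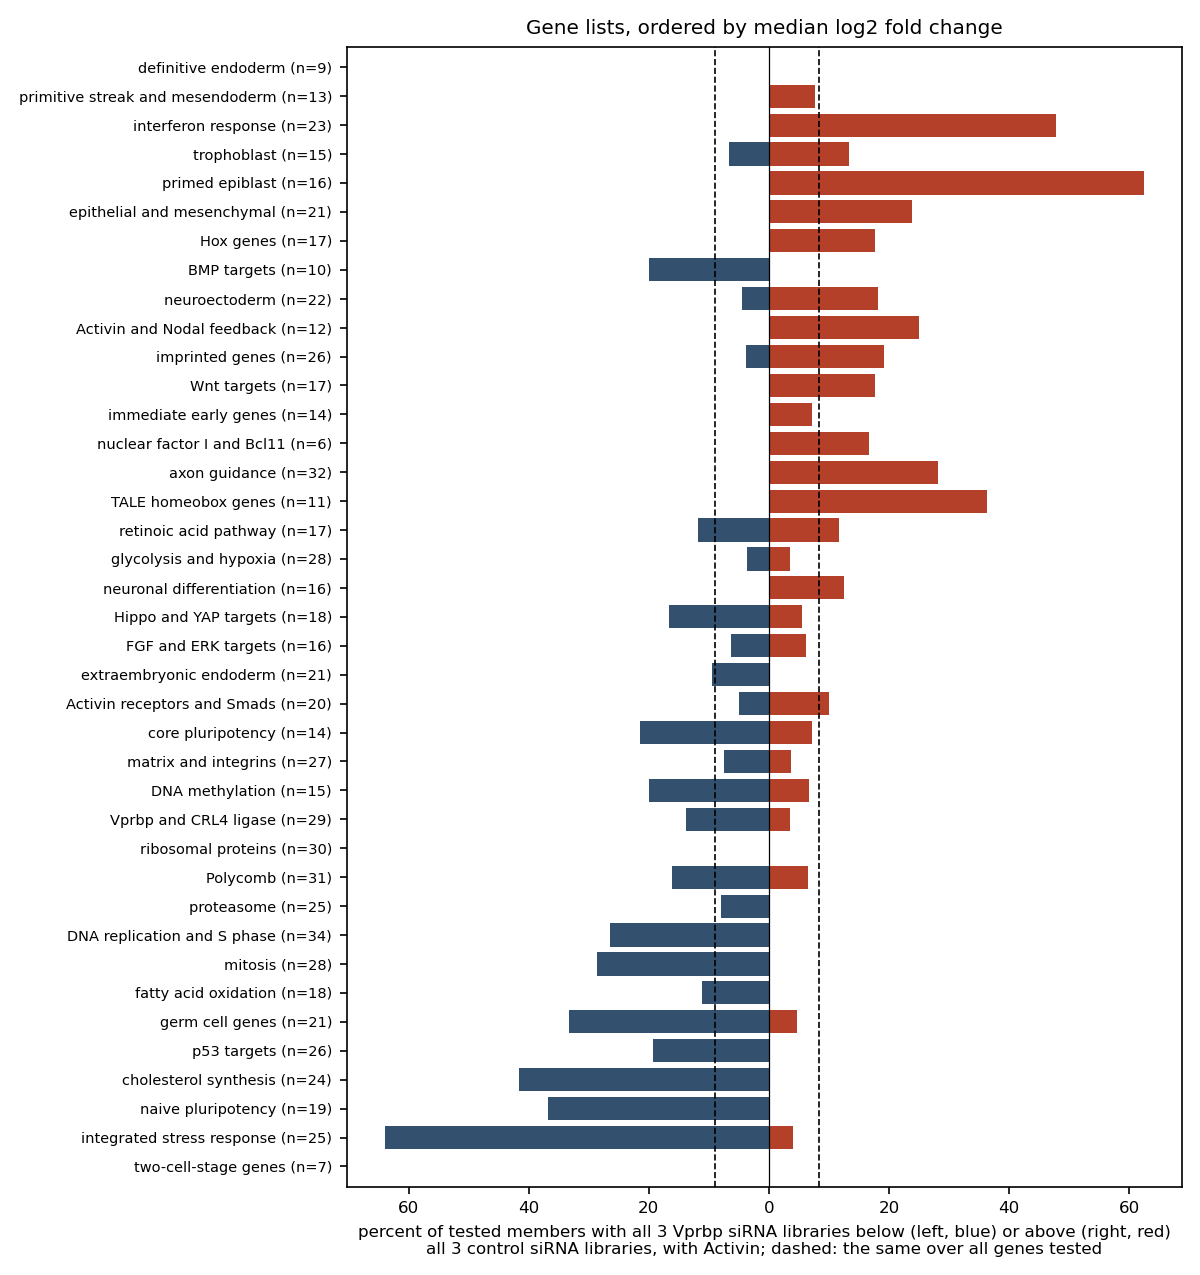
For each gene list, the percent of its tested members whose 3 Vprbp siRNA libraries all lay above (right, red) or below (left, blue) the 3 control siRNA libraries with Activin, ordered by median log2 fold change. Dashed lines mark the same percent over all genes tested, 8.38% above and 9.03% below, and primed epiblast (10 of 16), interferon response (11 of 23) and integrated stress response (16 of 25) have the longest bars.

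The same knockdown without Activin was measured in libraries that this comparison does not use. It called 6 genes as well, 0.0411% of those tested, with 969 genes apart upward (6.64%) and 825 downward (5.65%). Over all genes the log2 fold changes with and without Activin had a Pearson r of 0.33, a description across genes, which are not independent replicates. Genes apart upward in both numbered 207, which is 16.9% of those with Activin and 21.4% of those without, and genes apart downward in both numbered 147, which is 11.2% and 17.8%. Opposite directions were seen in 23 genes higher with and lower without Activin and in 22 genes the other way. The siRNA labels are the same at both Activin levels.

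Ifitm3 was called at both levels. Without Activin it was at 84.1, 86.2 and 78.6 CPM in control and 121, 133 and 127 CPM in Vprbp siRNA libraries (0.61 ± 0.08), and the difference between the effects with and without Activin was -0.09 ± 0.11 (unadjusted p = 0.43). Vprbp differed by -0.49 ± 0.06 without Activin (difference 0.11 ± 0.09, unadjusted p = 0.23). Stra8, several times more abundant without Activin, was there at 235, 234 and 279 CPM and 158, 123 and 200.4 CPM (-0.64 ± 0.14), and again every knockdown library was below every control. The estimate for Sema4c was larger with Activin, the comparison in which this gene was picked. Without Activin Sema4c was at 20.5, 18.8 and 19.3 CPM and 22.1, 24.1 and 19.8 CPM (0.17 ± 0.10). The difference was 0.49 ± 0.14 (unadjusted p = 0.0028 and adjusted p = 0.999 by edgeR), so it did not pass the test. Its groups overlapped without Activin and lay apart with it. Ctdsp1 and Spred3 had 0.21 ± 0.09 and 0.43 ± 0.12 without Activin, and lay apart at both levels.

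**Figure D5:**
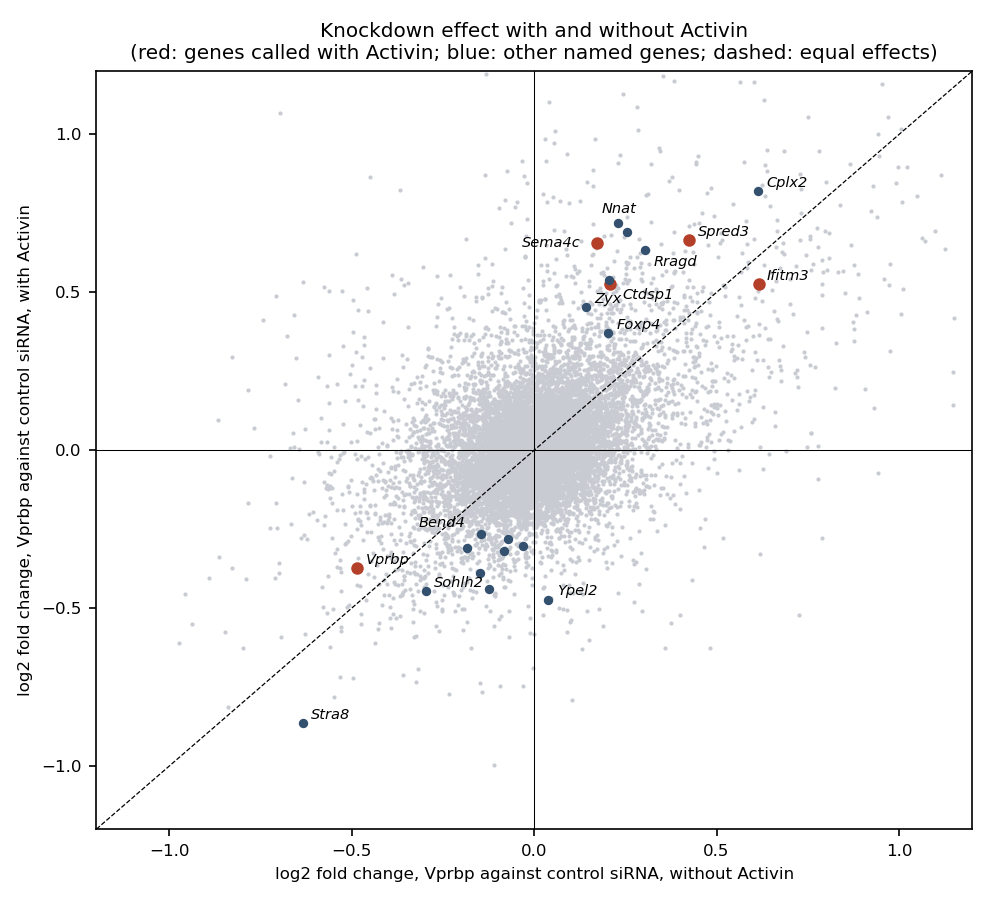
Log2 fold change of Vprbp against control siRNA without Activin (x axis) and with Activin (y axis) for 12602 genes whose mean log2 CPM was 1 or more, with 30 more beyond the axes. Red points are Vprbp, Ifitm3, Sema4c, Ctdsp1 and Spred3, which were called with Activin, blue points other named genes, and the dashed line marks equal effects. Ifitm3 and Vprbp lie near that line, and Sema4c lies above it.

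No difference between the effects with and without Activin passed the test. Over all genes edgeR called 0 and DESeq2 0, with 517 genes (3.54%) at an unadjusted p under 0.05 and a smallest adjusted p of 0.999. The genes with the smallest p were A230050P20Rik, at 0.39 ± 0.11 with Activin and -0.27 ± 0.11 without (unadjusted p = 0.0004), the mucin gene Muc1 at 0.83 ± 0.23 and -0.37 ± 0.22 (unadjusted p = 0.0013), and Il3ra, Esrp2 and Rgl3. Toward lower values with Activin they were Slco4c1, at -0.51 ± 0.15 and 0.30 ± 0.16 (unadjusted p = 0.0014), Tmeff1, the helicase gene Ddx19b, Nmrk1 and Ypel2. Several of these genes lay on opposite sides of 0 at the 2 Activin levels, but none can be said to respond differently at this number of libraries.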

How the data were processed

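RNA of 15 libraries, 5 groups of 3, was sequenced, and 6 libraries enter the comparison described. The authors deposited fragment counts per gene symbol, without normalization, in 1 table of 24456 rows, of which 5 are tallies that were left out of library sizes and tests. They took 10.3% to 16.02% (outside genes), 0.678% to 0.722% (ambiguous) and 27.7% to 29.5% (not aligned) of the fragments of the 6 libraries. Per the submitters' processing notes, HTSeq 0.6.1p1 and build mm10 were used. Aligner, annotation and strand setting were not given in the sources used here. Groups were taken from the sample titles.

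Genes passing edgeR's filterByExpr (minimum count 10) were fitted with TMM scaling and robust quasi-likelihood tests (edgeR 4.0.16, R 4.3.3) over all 15 libraries with 1 mean per group, Benjamini-Hochberg adjustment over all genes and a threshold of 0.05. The biological coefficient of variation was 8.76%. CPM use TMM-scaled library sizes, and each log2 fold change is given with its standard error from the fit. Limits from a count of 0 take 3 counts and cover counting error only. Replicates of a group were further apart than sampling noise, with chi-square over degrees of freedom at 2.81 to 3.40 among control siRNA and 7.64 to 16.2 among Vprbp siRNA libraries with Activin. The procedure was also run on simulated counts. No simulated library was made to stand apart from its group, so that run cannot speak to the effect of such a library. Alternatives were RLE factors, library totals, other filters, DESeq2 1.42.0, only the 6 libraries, a replicate block and leaving out each library.

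The comparison, 40 gene lists and 4 lists of cell type markers were chosen with earlier results of these data known. The rule for named genes took Vprbp, Lefty1, Lefty2 and Nodal, up to 12 rises and 12 falls with mean log2 CPM 1 or more and groups that did not overlap, filled by the smallest p-values where fewer passed and leaving out unnamed gene models. It added the 4 members lowest in p from every list, and 5 genes in each direction for the difference between Activin levels. Members of lists taken in this way tend to lie apart through that choice. Genes named beyond it, among them those called only in the fit of the 6 libraries and members of lists after the first 4, were chosen after their values were seen. Some genes that the rule takes are not reported here. Positions and promoters are from RefSeq on GRCm38, in which 23249 symbols matched directly and 1078 through a synonym.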

Additional observations from a re-analysis of the deposited data

How the results depend on the processing

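How many genes were called depended on the fit. Of the 6 genes called, 5 higher and 1 lower, the counts were the same with RLE factors, library totals or a filter of 1 CPM in 3 libraries. They were 15, 14 and 1 without a filter, 76, 52 and 24 with DESeq2, and 68, 53 and 15 with only the 6 libraries compared. Leaving out each library in turn gave 0 to 21 genes called, 0 to 20 higher and 0 to 1 lower, with 0 without any 1 of the 3 control siRNA libraries. Alternatives chosen after seeing the data gave 6, 4 and 2 with the trend of each library against GC content removed, 62, 47 and 15 with that trend removed in the fit of the 6 libraries, and 205, 162 and 43 after leaving out 3 libraries that stood off from their groups (replicate 3 of both siRNAs without Activin and replicate 1 of Vprbp siRNA with Activin). Without those 3, 1 gene was called for the difference between Activin levels, against 0 in the fit reported and in its other alternatives. The cause of these differences was not tested. Ifitm3, Sema4c, Ctdsp1 and Vprbp were called in every fit that left out no single library. Spred3 was lost with only the 6 libraries and with the GC trend removed. Among fits without 1 library, Ifitm3 and Ctdsp1 were called in 2 of 6, Sema4c in 3, and Spred3 and Vprbp in 1. The log2 fold change of Vprbp was between -0.42 and -0.33 in these fits, and it was lost without any 1 control library or Vprbp siRNA replicate 2 or 3. For the genes named, values under alternatives kept their side of the threshold 2931 times, gained a call 188 times and lost one 50 times, and none was reversed.

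Same-numbered libraries of the 2 groups did not deviate together at each number (r over genes of 0.18, -0.00025 and 0.035). The r at number 1 was above every r between different numbers (-0.16 to 0.13), whereas control siRNA replicates 2 and 3 correlated best with another number. The numbers were therefore not taken as a pairing in the fit reported, which would not remove an effect shared by same-numbered libraries. Whether these were handled together is not stated. With a replicate block 51 genes were called (35 higher, 16 lower) over 15 libraries and 170 (118 higher, 52 lower) over the 6 libraries. All 6 genes called in the fit reported were among them both times. At these depths genes under about 1 CPM rest on few counts.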

Other observations

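The genes described next were picked one by one after the values of all genes were seen, and they stand for no list. Erap1, the aminopeptidase that trims peptides for MHC class I, was at 16.8, 16.5 and 18.4 CPM with control siRNA and 34.5, 30.6 and 28.4 CPM with Vprbp siRNA (0.85 ± 0.19, adjusted p = 0.12 by edgeR's quasi-likelihood test). Tapbp, which loads those peptides, was at 62.8, 64.1 and 71.2 CPM and 97.3, 108 and 82.4 CPM (0.54 ± 0.13, adjusted p = 0.17), and the proteasome activator gene Psme1 at 99.7, 97.5 and 109 CPM and 137, 145 and 123 CPM (0.40 ± 0.09, adjusted p = 0.12). In all 3 genes the groups did not overlap and replicate 3 was the lowest knockdown library. In the fit of only the 6 libraries, whose calls had been seen when these genes were picked, Erap1 had 0.85 ± 0.10 (adjusted p = 0.0071), Tapbp 0.54 ± 0.09 (adjusted p = 0.03) and Psme1 0.40 ± 0.07 (adjusted p = 0.034). Without Activin their differences were 0.80 ± 0.22, 0.15 ± 0.14 and 0.16 ± 0.10.

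Among the smallest p-values of that fit were also Spon1, a matrix protein of the developing floor plate, at 17.7, 18.4 and 18.6 CPM and 35.2, 37.9 and 29.5 CPM (0.90 ± 0.11, adjusted p = 0.0071), and the protocadherin gene Pcdh1 at 80.5, 80.6 and 80.3 CPM and 121, 109 and 114 CPM (0.51 ± 0.06, adjusted p = 0.0071). Their controls were nearly equal, and all knockdown libraries were higher. On the lower side were 2 further germ cell genes that are not in the list above, Tex14, which keeps bridges between germ cells open, at 56.2, 55.4 and 56.6 CPM and 39.7, 38.8 and 44.0 CPM (-0.46 ± 0.08, adjusted p = 0.022), and Dmrt1, a factor of male germ cells, at 152, 139.9 and 141 CPM and 112, 117 and 104 CPM (-0.38 ± 0.07, adjusted p = 0.024). Both were lower in every knockdown library. In the fit of all 15 libraries none of these 4 genes passed.

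GC content of transcripts was known for 14507 of the genes tested (99.4%). Its Pearson r with the log2 fold change, across genes, was 0.040 with Activin and -0.23 without. The median GC content was 52.0% in genes apart upward with Activin, 48.8% in genes apart downward and 50.2% in all genes tested.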
